A study of Sus scrofa with 19 samples.

Results

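The rare classes of the fecal microbiota of boars were described here, that is, the bacterial and archaeal classes that held less than 0.1% of the sequences of a boar on average. Of the 27 classes listed for the feces, 16 were selected on their mean share over the 19 boars, above 0 and under 0.1%, and the other 11 classes were more abundant. Feces came from Duroc boars, each sample from a separate boar by its label. The 10 AOS10 boars received a basal diet with alginate oligosaccharides (AOS), at 10 mg/kg body weight per the study's methods. AOS are short sugar chains made from the alginate of brown seaweed. The 9 CON boars received the basal diet alone. CON boars were numbered to 10 with no boar 6. The labels gave ages of 24 to 33 months for the AOS10 boars and 34 to 42 months for the CON boars, in steps of 1 month from sample to sample, so that their meaning as ages was in doubt. The study's methods describe boars of a single age near the lowest label age. If the label values are ages, age and diet cannot be told apart in these boars. The community was profiled from part of the 16S ribosomal RNA gene, which all bacteria and archaea carry, and each value is the share of a boar's sequences assigned to a class. The question put to the data was whether AOS10 went with another intestinal microbiota.

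Classes at such low shares can hold specialised functions of the hindgut. *Methanobacteria* are archaea that use hydrogen left over from bacterial fermentation to reduce carbon dioxide to methane. *Fibrobacteria* degrade cellulose, *Synergistia* ferment amino acids and peptides, and *Mollicutes* are small bacteria that lack a cell wall. *Oligosphaeria* are anaerobes of the phylum Lentisphaerae, a relative of the Verrucomicrobia.

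The mean share over all boars, by which the classes were chosen, ran from 0.000126% for *Lentisphaeria* to 0.0832% for *Synergistia*. The next highest inside the threshold was *Flavobacteriia* with 0.0309%, and the nearest classes outside it were *Sphingobacteriia* with 0.196% and *Verrucomicrobiae* with 0.267%. Among the rare classes, only *Synergistia* and *Betaproteobacteria*, a group with gut commensals as well as soil and water bacteria, were above 0 in all 19 boars. *Methanobacteria* were listed above 0 in 13 boars, *Fibrobacteria* in 12, and *Oligosphaeria*, *Mollicutes* and *Epsilonproteobacteria*, the class of *Campylobacter* and *Helicobacter*, in 10 boars each. *Flavobacteriia*, mostly environmental Bacteroidetes, and *Alphaproteobacteria*, a class with many soil and plant associated members, were listed in 9 boars each. *Fusobacteriia*, which ferment amino acids, were listed in 5 boars. The remaining 6 classes were found in 1 to 3 boars: *Acidobacteria_Gp1*, *Acidobacteria_Gp16* and *Gemmatimonadetes*, known mainly from soil, *Elusimicrobia*, known from insect guts, *Opitutae* of the Verrucomicrobia, and *Lentisphaeria*, which ferment sugars.

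**Figure D1:**
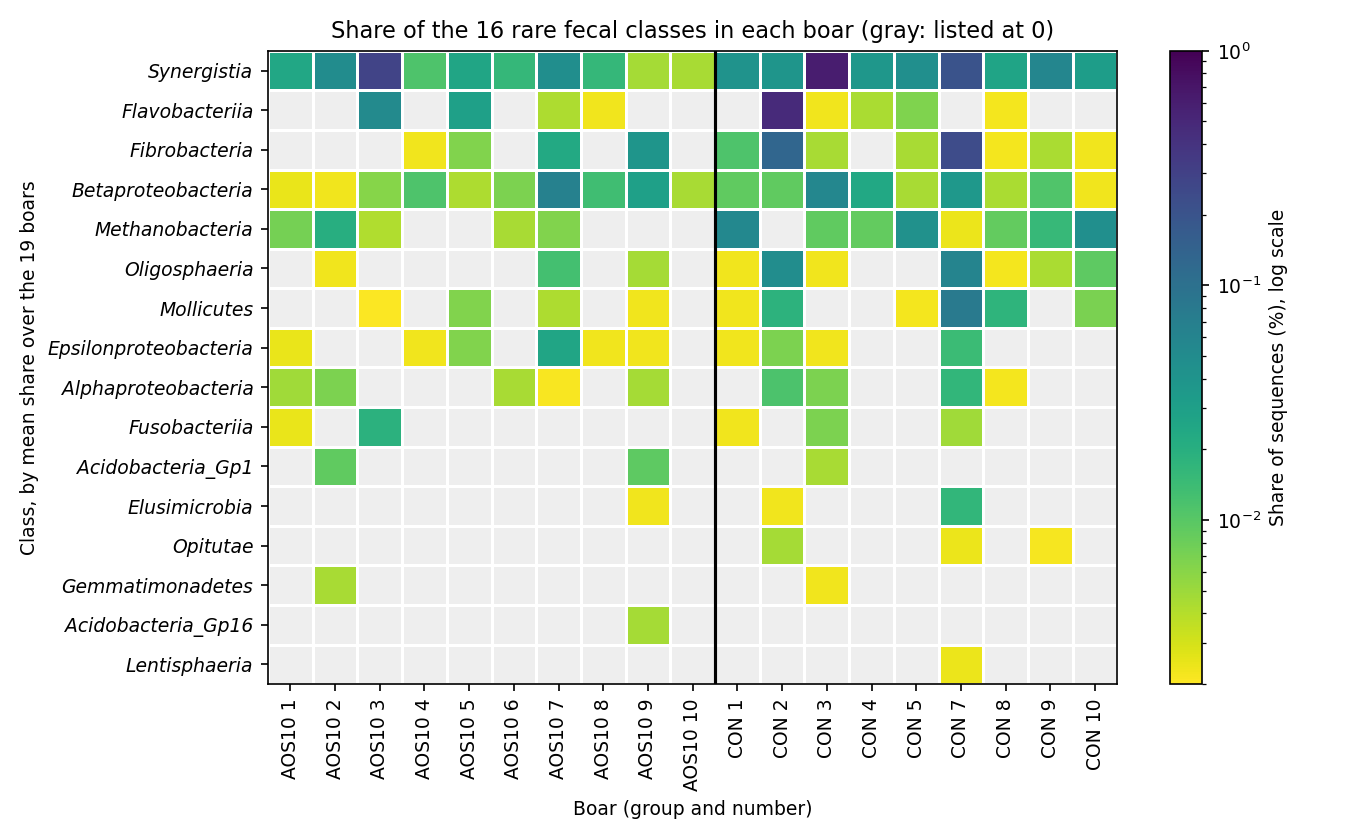
Share of sequences (%, colour on a log scale) of the 16 rare classes (rows, by mean share) in each of the 10 AOS10 boars (left) and 9 CON boars (right), with gray for a share listed at 0. *Synergistia* and *Betaproteobacteria* are coloured in all 19 boars, and CON boars 7, 3 and 2 have the most coloured cells among CON boars, with 12, 11 and 10 classes.

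Of the 304 values of these classes, 129 (42.4%) were above 0, and 39 of those (30.2%) equalled the smallest share listed in that boar within 1%. Many values therefore lay at the lower end of the listed shares. The number of sequences per boar is not stated, since the deposited values are shares and not counts. In CON boar 4, for example, shares of 0.00221%, 0.00441% and 0.00882% were whole multiples of its smallest share. The number of sequences that such steps imply was not derived here. The smallest share listed in any of the 6 taxonomic tables was 0.00208% to 0.00456% in AOS10 boars and 0.00220% to 0.00240% in CON boars. AOS10 boars 5, 6 and 10 were the boars with the high values, at 0.00433%, 0.00456% and 0.00446%. Shares of 0.00649% in AOS10 boar 5 and 0.00684% in AOS10 boar 6 were not whole multiples of these values. The smallest listed share therefore did not mark a limit of detection in AOS10 boars 5 and 6. Presence is given below with and without AOS10 boars 5, 6 and 10.

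The AOS10 boars had 2 to 10 of the rare classes above 0, with a median of 6, and the CON boars had 4 to 12, with a median of 8. Summed over the 16 classes, the share was 0.00893% to 0.372% in AOS10 boars (median 0.0620%) and 0.0661% to 0.756% in CON boars (median 0.109%). The ranges overlapped widely. Single boars carried much of each class: the highest share of a class lay in an AOS10 boar for 6 classes and in a CON boar for 10, among them 6 classes with the highest share in CON boar 7. That boar and CON boar 2 together held 78.7% of all *Fibrobacteria* summed over boars, 72.9% of *Oligosphaeria* and 68.8% of *Mollicutes*. CON boar 2 alone held 82.2% of *Flavobacteriia*.

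The mean share was compared between the groups with a two-sided exact permutation test for the 21 classes above 0 in at least 5 boars, 10 of them rare. The other 6 rare classes were listed in too few boars for this test. No class passed after Benjamini-Hochberg adjustment (0 of 21 classes, 0%), with a smallest adjusted p of 0.399 by the permutation test. At an unadjusted p under 0.05 there were 2 of 21 classes (9.52%), and both were rare. The limma test on log2(percent + 0.01) called 0 of 21 classes after adjustment and 1 at an unadjusted p under 0.05. The mean was lower in AOS10 for 8 of the 10 rare classes tested, against 14 of all 21 classes (66.7%). The ratio of the AOS10 mean to the CON mean had a median of 0.303 over the 10 rare classes and of 0.685 over all 21 classes. Single boars moved the median of the rare classes, which was 0.543 without CON boar 2 (0.784 over all 21) and 0.181 without AOS10 boar 3 (0.618 over all 21). Without CON boars 2 and 7 it was 1.28 over the rare classes and 1.27 over all 21, with 5 of the 10 rare classes lower in AOS10.

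*Methanobacteria*, the methane-forming archaea, had a lower mean in AOS10. In AOS10 boars the share was 0 to 0.0205% with a median of 0.00208%, and in CON boars it was 0 to 0.0546% with a median of 0.00906%. The groups overlapped, but only AOS10 boar 2 was above the CON median, and CON boars 1, 10 and 5 were above all AOS10 boars. Means were 0.00429% ± 0.00639 in AOS10 (SD, n = 10) and 0.0211% ± 0.0211 in CON (SD, n = 9). The AOS10 to CON ratio of means was 0.203, with an unadjusted exact permutation p of 0.0237 and an adjusted p of 0.399. The unadjusted exact permutation p stayed under 0.05 whichever single boar was left out, between 0.00543 and 0.0471. It was 0.0172 on ranks but 0.105 for the difference of medians. By limma on log2(percent + 0.01) the unadjusted p was 0.0179, and with the replicate number as a block it was 0.0898 (exact sign-flip test). Without AOS10 boar 2, the highest of its group, the ratio was 0.118. Without CON boars 2 and 7, the boars richest in *Bacteroidia*, the ratio was 0.160 (adjusted exact permutation p = 0.0648). Without AOS10 boars 5, 6 and 10 it was 0.260 (unadjusted exact permutation p = 0.0980). Of the 4 classes of methanogens looked for, *Methanobacteria* was the only class in the table.

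*Fibrobacteria*, the cellulose degraders, were at 0 to 0.0393% in AOS10 boars with a median of 0, and at 0 to 0.240% in CON boars with a median of 0.00446%. CON boars 7 and 2 stood above all others with 0.240% and 0.133%, and the remaining CON boars reached at most 0.0114%, below AOS10 boars 9 and 7 with 0.0393% and 0.0236%. Means were 0.00717% ± 0.0135 in AOS10 and 0.0447% ± 0.0848 in CON (SD). Their ratio was 0.160 (adjusted exact permutation p = 0.598). It was 0.353 without CON boar 7 and 0.0805 without AOS10 boar 9. Without CON boars 2 and 7 the direction turned and the ratio was 1.71, with means of 0.00717% in AOS10 and 0.00418% in CON. *Spirochaetia*, the other class of the fibre degrader list in the table, was not rare, and 0 of the 2 passed the test.

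*Oligosphaeria* were at 0 to 0.0129% in AOS10 boars with a median of 0, and at 0 to 0.0600% in CON boars with a median of 0.00227%. The high values were again those of CON boars 7 and 2, with 0.0600% and 0.0483%, and AOS10 boar 7 came next with 0.0129%. Means were 0.00198% ± 0.00413 in AOS10 and 0.0143% ± 0.0229 in CON (SD). Their ratio was 0.138 (adjusted exact permutation p = 0.539), and 0.679 without CON boars 2 and 7. It was 0.231 without CON boar 7 alone and 0.0536 without AOS10 boar 7. The other class of the Lentisphaerae, *Lentisphaeria*, was listed in CON boar 7 alone with 0.00240%, the smallest share listed in that boar.

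*Mollicutes*, the bacteria without a cell wall, were at 0 to 0.00649% in AOS10 boars with a median of 0, and at 0 to 0.0792% in CON boars with a median of 0.00227%. CON boars 7, 2, 8 and 10 were above every AOS10 boar, while CON boars 3, 4 and 9 were listed at 0. The mean of 0.00152% ± 0.00229 in AOS10 was 0.108 times that of 0.0141% ± 0.0255 in CON (SD), with an unadjusted exact permutation p of 0.0380 and an adjusted p of 0.399. Without CON boar 7 the ratio was 0.256 (unadjusted exact permutation p = 0.0994), and without CON boars 2 and 7 it was 0.365. Without AOS10 boar 5 it was 0.0686. The unadjusted exact permutation p was under 0.05 in 7 of the 19 settings with a single boar left out. It was 0.134 on ranks and 0.323 for the difference of medians. By limma on log2(percent + 0.01) the unadjusted p was 0.0746, and with the replicate number as a block it was 0.117 (exact sign-flip test).

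*Synergistia*, the amino acid fermenters, were present in every boar, at 0.00446% to 0.289% in AOS10 with a median of 0.0202% and at 0.0265% to 0.605% in CON with a median of 0.0409%. AOS10 boar 3 and CON boar 3 had the highest share of their group, and 7 AOS10 boars were below the lowest CON boar. The means, 0.0488% ± 0.0857 in AOS10 and 0.121% ± 0.190 in CON (SD), had a ratio of 0.403 (adjusted exact permutation p = 0.598), which depended on those boars. Without AOS10 boar 3 the ratio was 0.183 (unadjusted exact permutation p = 0.00683, adjusted p = 0.137), and without CON boar 3 it was 0.803 (unadjusted exact permutation p = 0.684). With all boars, the unadjusted exact permutation p was 0.0435 on ranks (adjusted p = 0.351) and 0.0833 for medians (adjusted p = 0.627). It was 0.0746 by limma on log2(percent + 0.01) (adjusted p = 0.363). With the replicate number as a block it was 0.0117 (exact sign-flip test, adjusted p = 0.246).

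**Figure D2:**
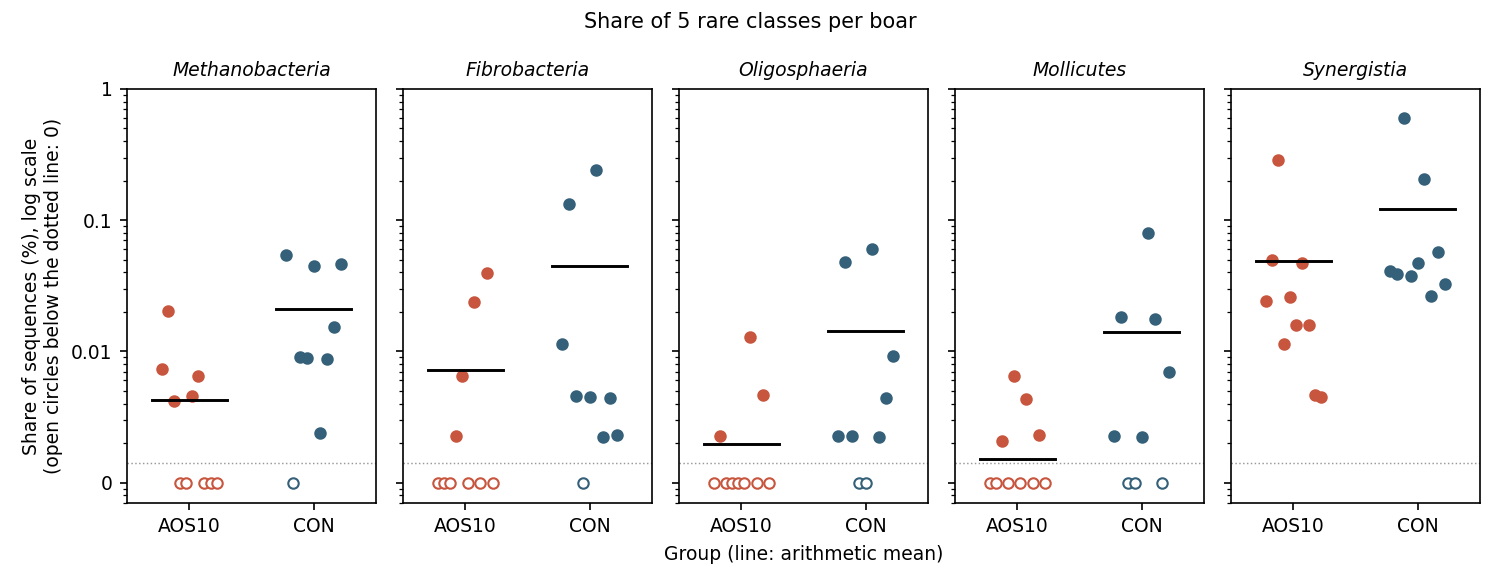
Share of sequences (%, log scale, with 0 as open circles below the dotted line) of 5 rare classes in the 10 AOS10 boars (left in each panel) and the 9 CON boars (right), with 1 point per boar and a line at the arithmetic mean. The groups overlap in each panel, and CON boars 7 and 2 are the highest points of *Fibrobacteria*, with 0.240% and 0.133%.

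Of the other 5 rare classes tested, *Epsilonproteobacteria* (ratio 1.45) and *Fusobacteriia* (ratio 1.37) had a higher mean in AOS10, and *Betaproteobacteria* (ratio 0.847), *Alphaproteobacteria* (ratio 0.556) and *Flavobacteriia* (ratio 0.160) had a lower one. None had an unadjusted exact permutation p under 0.05. Several of these directions turned with a single boar left out. The ratio of *Epsilonproteobacteria* was 0.611 without AOS10 boar 7 and 2.91 without CON boar 7, and that of *Fusobacteriia* was 0.176 without AOS10 boar 3 and 2.39 without CON boar 3. That of *Betaproteobacteria* was 1.18 without CON boar 3 and 0.518 without AOS10 boar 7, and that of *Flavobacteriia* was 4.56 without CON boar 2 and 0.0740 without AOS10 boar 3. *Alphaproteobacteria* had a ratio of 0.899 without CON boar 7. *Flavobacteriia* were at most 0.0519% in AOS10 boars, while CON boar 2 had 0.483% and the other CON boars at most 0.00669%. Without CON boars 2 and 7 the ratio of *Flavobacteriia* was 3.99, that of *Epsilonproteobacteria* 6.41 and that of *Alphaproteobacteria* 1.79, so that only 5 of the 9 rare classes then tested had a lower mean in AOS10. Of the 3 rare classes of the Proteobacteria, the phylum with *Escherichia*, *Betaproteobacteria* held a median of 0.250% of the phylum in AOS10 boars and 0.378% in CON boars.

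Presence, that is a share above 0, was compared for the 16 classes listed in some but not all boars, of which 14 were rare, with a two-sided Fisher's exact test. None passed after adjustment (0%), and none had an unadjusted p under 0.05 (0%). *Fibrobacteria* had a share above 0 in 4 of the 10 AOS10 boars and in 8 of the 9 CON boars (Fisher's exact p = 0.0573, adjusted p = 0.347). *Oligosphaeria* had 3 of the 10 AOS10 boars and 7 of the 9 CON boars above 0 (Fisher's exact p = 0.0698, adjusted p = 0.347). *Opitutae* were listed in 0 of the 10 AOS10 boars and in CON boars 2, 7 and 9 (Fisher's exact p = 0.0867, adjusted p = 0.347). For *Methanobacteria* the number was 5 of the 10 AOS10 boars and 8 of the 9 CON boars (Fisher's exact p = 0.141, adjusted p = 0.451). For the other rare classes the unadjusted Fisher's exact p was 0.370 or higher.

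Part of these differences lay at the lower end of the values. When only shares above 0.00456% were counted, the highest of the smallest shares of the 19 boars, *Fibrobacteria* were present in 3 of the 10 AOS10 boars and 3 of the 9 CON boars. *Oligosphaeria* were then present in 2 of the 10 AOS10 boars and 3 of the 9 CON boars, whereas *Methanobacteria* were present in 3 of the 10 AOS10 boars and 7 of the 9 CON boars (Fisher's exact p = 0.0698, adjusted p = 1). Without AOS10 boars 5, 6 and 10, whose smallest listed share was high, presence in AOS10 was 3 of 7 boars for *Fibrobacteria* (Fisher's exact p = 0.106), 3 of 7 for *Oligosphaeria* (Fisher's exact p = 0.302) and 4 of 7 for *Methanobacteria* (Fisher's exact p = 0.262).

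The soil type classes occurred in few boars. *Acidobacteria_Gp1* were listed in AOS10 boars 9 (0.00925%) and 2 (0.00909%) and in CON boar 3 (0.00453%). *Gemmatimonadetes* were listed in AOS10 boar 2 (0.00454%) and CON boar 3 (0.00227%), and *Acidobacteria_Gp16* in AOS10 boar 9 alone (0.00462%). The 3 classes were thus all at 0 in the remaining 8 AOS10 boars and 8 CON boars. *Elusimicrobia* were listed in AOS10 boar 9 (0.00231%) and in CON boars 7 (0.0168%) and 2 (0.00230%).

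Which rare classes occurred in the same boars was examined over the 19 boars with Spearman's rho and Pearson's r. Of the 210 pairs among the 21 classes, 0 passed the permutation test of rho after adjustment (0%), and 29 had an unadjusted p under 0.05 (13.8%). The 45 pairs of rare classes held 7 of these (15.6%), close to the share over all pairs. All 7 had a rho above 0, as did 23 of the 29 over all pairs. *Fibrobacteria*, *Oligosphaeria* and *Mollicutes* were often listed in the same boars. All 3 were above 0 in AOS10 boars 7 and 9 and in CON boars 1, 2, 7, 8 and 10, and all 3 were at 0 in 4 AOS10 boars and CON boar 4.

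The highest rho of all 210 pairs was that of *Fibrobacteria* with *Oligosphaeria*, at 0.736 (permutation p = 0.00065, adjusted p = 0.0997). Within the groups rho was 0.596 in AOS10 and 0.653 in CON. The r was 0.967 (adjusted permutation p = 0.0168), and it was 0.534 without CON boars 2 and 7, with a rho of 0.619. The 2 classes were both above 0 in 9 boars and both at 0 in 6.

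*Fibrobacteria* with *Mollicutes* had a rho of 0.709 (permutation p = 0.00125, adjusted p = 0.0997), 0.750 in AOS10 and 0.492 in CON. Their r of 0.918 (adjusted permutation p = 0.0437) rested on CON boars 2 and 7 and was 0.0828 without them, while rho was then 0.580. *Oligosphaeria* with *Mollicutes* had a rho of 0.618 (permutation p = 0.00570, adjusted p = 0.150), 0.428 in AOS10 and 0.630 in CON. Their r of 0.853 (adjusted permutation p = 0.0437) likewise rested on CON boars 2 and 7 and was 0.262 without them.

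*Fibrobacteria* with *Epsilonproteobacteria* had a rho of 0.683 (permutation p = 0.00190, adjusted p = 0.0997) and an r of 0.493 (adjusted permutation p = 0.339), or 0.492 without CON boars 2 and 7. With ranks centred on the group means this pair had a rho of 0.813 and was the only pair past the threshold (permutation p = 4e-05, adjusted p = 0.0084). By group rho was 0.733 in AOS10 and 0.913 in CON.

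For *Methanobacteria*, rho over all boars was -0.0658 with *Fibrobacteria* (adjusted permutation p = 0.956), -0.0688 with *Mollicutes* (adjusted permutation p = 0.956) and 0.169 with *Oligosphaeria* (adjusted permutation p = 0.852), and r was -0.216, -0.144 and -0.171 for these pairs. With ranks centred on the group means, rho was -0.374 with *Fibrobacteria* (-0.328 in AOS10, -0.217 in CON), -0.353 with *Mollicutes* (-0.175 in AOS10, -0.458 in CON) and -0.0925 with *Oligosphaeria*, and none of these passed the adjustment (adjusted permutation p of 0.512 or higher). CON boar 2, with the next highest *Fibrobacteria* share after CON boar 7, had no *Methanobacteria* listed, and CON boar 7 had 0.00240%. *Methanobacteria* had a rho of 0.526 with *Synergistia* (permutation p = 0.0228, adjusted p = 0.280), but an r of -0.0748, and by group rho was 0.666 in AOS10 and 0 in CON.

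*Synergistia* had a rho of 0.530 with *Fusobacteriia*, the other amino acid fermenters (permutation p = 0.0210, adjusted p = 0.276), and an r of 0.658 (adjusted permutation p = 0.312). *Fusobacteriia* were listed in 5 boars, among them AOS10 boar 3 and CON boar 3, which had the most *Synergistia* in their groups. Without those 2 boars r was 0.774 and rho 0.269. *Fusobacteriia* were then listed in AOS10 boar 1 and CON boars 1 and 7 alone. Of the boars left, CON boar 7 had the highest share of both classes, 0.206% *Synergistia* and 0.00480% *Fusobacteriia*. The next highest *Synergistia* share was 0.0572%, in CON boar 9, where *Fusobacteriia* were at 0. With *Oligosphaeria*, *Fibrobacteria* and *Mollicutes*, the rho of *Synergistia* was 0.402, 0.275 and 0.167, and the adjusted permutation p was 0.420 or higher. *Oligosphaeria* with *Alphaproteobacteria* had a rho of 0.503 (permutation p = 0.0300, adjusted p = 0.280) and an r of 0.834 (adjusted permutation p = 0.0437), which rested on CON boars 2 and 7 and was 0.0595 without them.

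**Figure D3:**
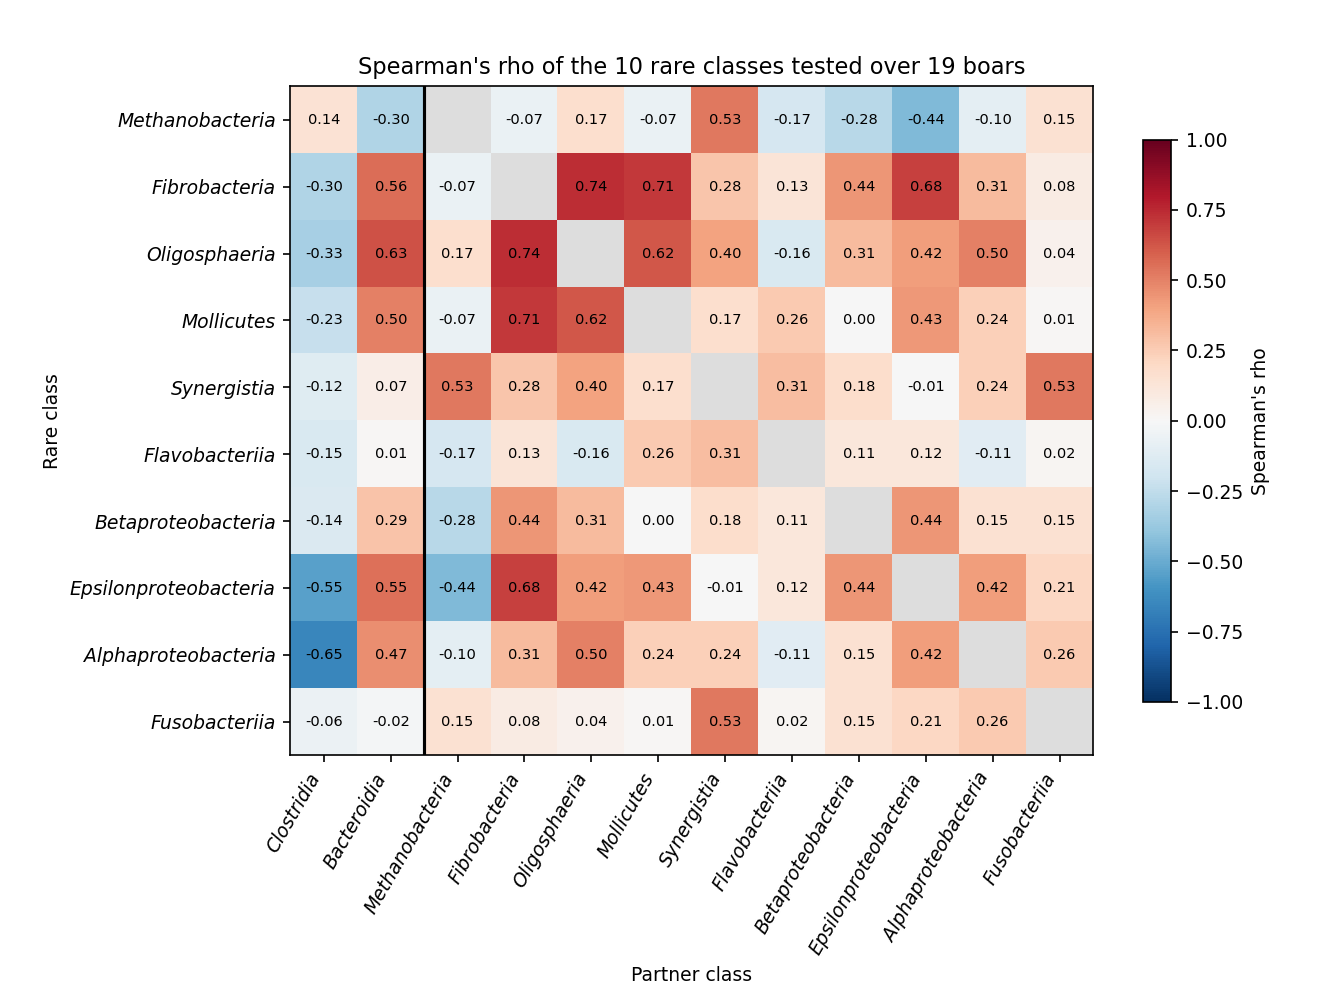
Spearman's rho over the 19 boars of the 10 rare classes tested (rows) with *Clostridia* and *Bacteroidia* (left of the black line) and with each other (right of it), with the value in each cell. The cells of *Fibrobacteria* with *Oligosphaeria* (0.736), *Mollicutes* (0.709) and *Epsilonproteobacteria* (0.683) are the highest among the rare classes, and no pair passed the adjustment.

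The rare classes were then set against *Clostridia*, the largest class and home of most fermenting anaerobes of the gut, and *Bacteroidia*, which break down polysaccharides. *Clostridia* held 55.3% to 81.3% in AOS10 boars (median 69.6%) and 46.0% to 83.1% in CON boars (median 68.0%). *Bacteroidia* held 0.935% to 9.02% in AOS10 boars (median 2.87%) and 0.651% to 31.3% in CON boars (median 3.62%). CON boars 2 and 7 had the most *Bacteroidia* of all 19 boars, 31.3% and 14.3%, and the least *Clostridia* of the CON boars, 46.0% and 55.5%. Because the shares of a boar add up to 100%, a large share of a class lowers the others.

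Of the 38 pairs of a class with *Clostridia* or *Bacteroidia*, 0 passed the permutation test of rho after adjustment (0%) and 10 had an unadjusted p under 0.05 (26.3%). Rare classes made up 7 of these. With *Bacteroidia*, rho was above 0 for 8 of the 10 rare classes and for 14 of all 19 classes. With *Clostridia*, rho was below 0 for 9 of the 10 rare classes and for 18 of all 19.

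*Oligosphaeria* had the highest rho of the rare classes with *Bacteroidia*, 0.634 (permutation p = 0.00452, adjusted p = 0.0859), with 0.470 in AOS10 and 0.770 in CON. The r was 0.823 (adjusted permutation p = 0.0566) and 0.404 without CON boars 2 and 7. *Fibrobacteria* with *Bacteroidia* had a rho of 0.561 (permutation p = 0.0139, adjusted p = 0.108), with 0.594 in AOS10 and 0.467 in CON, and an r of 0.732 (adjusted permutation p = 0.165), or 0.667 without those boars. With r on log2(percent + 0.01), *Oligosphaeria* (r = 0.767) and *Fibrobacteria* (r = 0.764) passed the adjustment with *Bacteroidia* (adjusted permutation p = 0.00323 each). The r on log2 was not computed without CON boars 2 and 7. AOS10 boars 9 and 7, which had the most *Fibrobacteria* of their group, had 9.02% and 4.52% *Bacteroidia*.

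*Epsilonproteobacteria*, *Mollicutes* and *Alphaproteobacteria* had a rho with *Bacteroidia* of 0.553 (adjusted permutation p = 0.108), 0.501 (adjusted permutation p = 0.149) and 0.469 (adjusted permutation p = 0.185). Their r was 0.308, 0.486 and 0.675, and without CON boars 2 and 7 it was 0.195, 0.227 and 0.196. With r on log2(percent + 0.01), *Mollicutes* and *Alphaproteobacteria* passed the adjustment with *Bacteroidia* (adjusted permutation p = 0.0375 each). *Epsilonproteobacteria* did not pass it (adjusted permutation p = 0.141). *Methanobacteria* had a rho of -0.299 with *Bacteroidia* (adjusted permutation p = 0.441) and an r of -0.273. By group it was -0.187 in AOS10 and -0.617 in CON, with -0.469 on ranks centred on the group means (permutation p = 0.0532, adjusted p = 0.201). Without AOS10 boars 5, 6 and 10 it was -0.579 (permutation p = 0.0213, adjusted p = 0.180). The rho with *Bacteroidia* of *Synergistia* was 0.0684 (adjusted permutation p = 0.929) with an r of -0.0128.

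With *Clostridia*, *Alphaproteobacteria* had a rho of -0.652 (permutation p = 0.00345, adjusted p = 0.0859), at -0.640 in AOS10 and -0.639 in CON. Their r was -0.716 (adjusted permutation p = 0.0300), and -0.632 without CON boars 2 and 10, the boars farthest from the median of *Clostridia*, or -0.528 without CON boars 2 and 7. *Epsilonproteobacteria* with *Clostridia* had a rho of -0.545 (permutation p = 0.0171, adjusted p = 0.108) and an r of -0.393 (adjusted permutation p = 0.231), or -0.379 without CON boars 2 and 10 and -0.259 without CON boars 2 and 7. *Fibrobacteria*, *Oligosphaeria*, *Mollicutes* and *Synergistia* had rho of -0.304, -0.328, -0.230 and -0.119 with *Clostridia*, and *Methanobacteria* 0.142, with adjusted permutation p of 0.441 or higher. For *Methanobacteria* it was -0.472 in AOS10 and 0.667 in CON, a difference that was not tested. The r with *Clostridia* was -0.589 for *Fibrobacteria* and -0.609 for *Oligosphaeria* (adjusted permutation p = 0.101 each), and -0.183 and 0.0414 without CON boars 2 and 7. With r on log2(percent + 0.01) these pairs passed the adjustment (adjusted permutation p = 0.0375 and 0.0418). On log2, *Alphaproteobacteria* with *Clostridia* passed it too (adjusted permutation p = 0.00823). When the shares were taken of the sequences outside *Clostridia* and *Bacteroidia*, 0 of the 38 pairs passed the adjustment by rho.

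**Figure D4:**
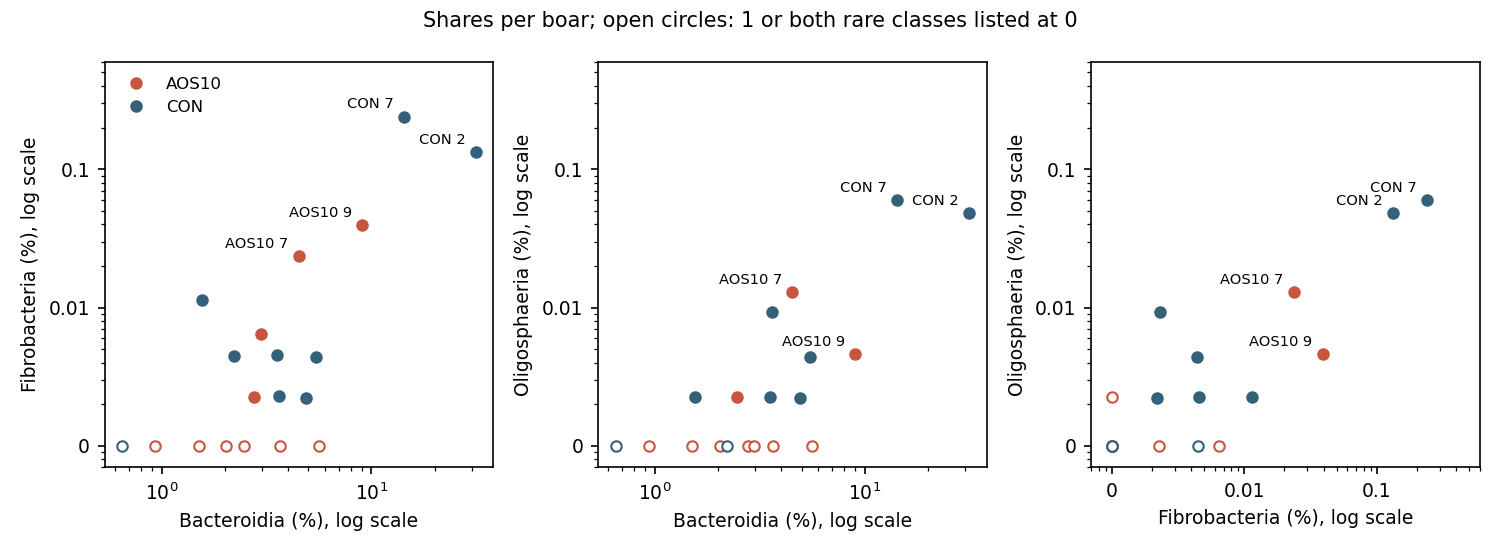
Share of *Fibrobacteria* and of *Oligosphaeria* against *Bacteroidia*, and of *Oligosphaeria* against *Fibrobacteria* (%, log scales, with 0 at the tick marked 0), with 1 point per boar for AOS10 and CON and open circles where a rare class is listed at 0. CON boars 2 and 7 lie at the upper right of each panel, with 31.3% and 14.3% *Bacteroidia*, and AOS10 boars 7 and 9 come next in *Fibrobacteria*.

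Functional groups were also counted. No class of any list passed the adjusted permutation test, for the single methanogen class and the single class without a cell wall, for 2 fibre degraders, for 2 amino acid fermenters, for the single class of the Lentisphaerae tested, for 5 classes of the Proteobacteria, and for *Verrucomicrobiae*, the mucin degraders. The list of classes often seen as DNA of soil, plants or reagents held 5 classes in the table, of which 4 were tested. These 4 had a lower mean in AOS10, against 14 of all 21 classes, and single boars turned the direction of *Flavobacteriia* and *Betaproteobacteria* as given above. CON boar 7 alone held 85.6% of *Sphingobacteriia* summed over boars, and the lower AOS10 mean of that class rested on it as well. The other CON boars had at most 0.0387% *Sphingobacteriia*, while the AOS10 mean was 0.0381%. The class of the list that was not tested, *Acidobacteria_Gp1*, had a higher mean in AOS10, 0.00183% against 0.000504% in CON. *Acidobacteria_Gp16* and *Gemmatimonadetes*, also soil type classes, were not on the list, and both had a higher mean in AOS10. The summed share of the 5 listed classes was 0.00446% to 0.278% in AOS10 boars (median 0.0345%). In CON boars it was 0.0116% to 3.24% (median 0.0441%), and the part of these classes in the results was not tested. Of the 3.24%, in CON boar 7, *Sphingobacteriia*, which were not rare, made up 3.19%.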

How the data were processed

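Feces of 19 boars (10 AOS10, 9 CON) were analysed, 1 sample per boar by the labels. Per the study's methods, DNA was extracted with a stool kit, the V3-V4 part of the 16S rRNA gene was amplified and sequenced as paired reads, reads were merged with FLASH, filtered and freed of chimeras in QIIME, grouped into operational taxonomic units, classified with Greengenes and scaled to the smallest sample. The values deposited by the authors are fractions of all sequences of a boar and not counts, in 6 stacked tables that each add up to 100% with a remainder named Others. Fractions were multiplied to percent here. The smallest listed share differed between boars, at 0.00208% in AOS10 boar 3 and 0.00244% in AOS10 boar 1. Whether the deposited fractions come from data scaled to the smallest sample is therefore unclear. Reads per boar are not given and were not derived from the steps between shares. No counting interval or limit for a share of 0 is therefore stated, and precision rests on the number of boars. All columns were matched to a boar by name, and no 2 boars had the same profile (at least 5.07% of sequences differed).

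The methods name an analysis of variance, replaced here by a two-sided exact permutation test of the difference of mean percent over all 92378 splits of the boars, with p as the share of splits with an absolute difference at least as large. It covered the 21 classes above 0 in at least 5 boars. Presence was compared with Fisher's exact test, and Spearman's rho and Pearson's r with permutation tests of 100000 resamples. For the coefficients within groups, ranks were centred on group means. P-values were adjusted by Benjamini-Hochberg over the whole class table (21 classes, 16 classes, 210 pairs, 38 pairs), with a threshold of 0.05. Python 3.11.15, numpy 2.4.6, scipy 1.17.1, pandas 2.3.3, and R 4.3.3 with limma 3.58.1 on log2(percent + 0.01) as an alternative, were used. The steps were tested on simulated data.

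The rare classes, the 5 described boar by boar (*Methanobacteria*, *Fibrobacteria*, *Oligosphaeria*, *Mollicutes*, *Synergistia*), the lists and the tests were chosen with earlier results of these data known. Pairs named are the 10 among these 5 classes and the 5 of rare classes with the highest absolute rho. *Oligosphaeria* with *Alphaproteobacteria*, *Opitutae* and the boars named were singled out once their values had been seen. Settings that left out CON boars 2 and 7, or AOS10 boars 5, 6 and 10, were a later addition, made with the values in view. The sources used here name no sequencing batch.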

Additional observations from a re-analysis of the deposited data

Results flagged for a closer look

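In the 10 rare classes tested, *Clostridia* and *Bacteroidia*, the highest boar of a group stood apart from the rest of its group in 11 of 24 groups by Dixon's criterion, which chance meets in about 1 of 20 groups of normally distributed values. Shares with many values at 0 and a few high ones are not normally distributed. In AOS10, these were *Synergistia* in boar 3 (0.289%), *Fusobacteriia* in boar 3 (0.0187%), *Methanobacteria* in boar 2 (0.0205%), and *Betaproteobacteria* (0.0666%), *Oligosphaeria* (0.0129%) and *Epsilonproteobacteria* (0.0258%) in boar 7. In CON, these were *Synergistia* in boar 3 (0.605%), *Flavobacteriia* (0.483%) and *Bacteroidia* (31.3%) in boar 2, and *Mollicutes* (0.0792%) and *Epsilonproteobacteria* (0.0144%) in boar 7.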

How the results depend on the processing

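The counts of rare classes called in the comparison of means and of presence were 0 under every alternative run: ranks, medians, limma with both pseudocounts, no filter, shares outside *Clostridia* and *Bacteroidia*, only shares above 0.00456% counted as present, the boars left out singly (0 to 0), and the groups of boars left out. The boar numbers did not pair the groups: over 9 pairs, correlations of deviations ran from -0.449 to 0.373, 4 were over 0.1, and 0 of the boars correlated best with its own number. With the replicate number as a block, 0 classes were called in either comparison, with smallest adjusted p of 0.246 (exact sign-flip test of means) and 0.8.

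For pairs of rare classes, 5 were called with Pearson's r on percent, 6 with r on log2 and 1 within groups, against 0 with rho. For links with *Clostridia* and *Bacteroidia*, 1 was called with r on percent and 7 with r on log2. With single boars left out, 0 to 1 pairs and 0 to 2 links were called. The cause was not tested.

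Some values changed sign, most of them near 0. Not near 0 were the *Fibrobacteria* difference (-0.0375%), which was 0.00299% without CON boars 2 and 7, and *Synergistia* with *Methanobacteria*, with a rho of 0.526 and an r on percent of -0.0748. With r on percent, *Synergistia* had 0.00445 with *Clostridia* and -0.0128 with *Bacteroidia*, and *Methanobacteria* with *Oligosphaeria* had -0.171 (-0.127 on log2). Within groups, *Synergistia* had -0.0114 with *Mollicutes* and -0.00653 with *Bacteroidia*, and *Methanobacteria* with *Oligosphaeria* had -0.0925. For shares outside *Clostridia* and *Bacteroidia*, *Methanobacteria* with *Mollicutes* had 0.0273 and *Synergistia* with *Clostridia* 0.0544. Without CON boars 2 and 7, *Methanobacteria* had 0.147 with *Fibrobacteria*, 0.132 with *Mollicutes* and -0.00496 with *Clostridia*, *Mollicutes* with *Clostridia* had 0.0610, and *Synergistia* with *Bacteroidia* -0.0686. Without AOS10 boars 5, 6 and 10, *Methanobacteria* with *Oligosphaeria* had -0.0152 and *Synergistia* with *Bacteroidia* -0.194. With single boars left out, rho ranged from -0.155 to 0.0483 for *Fibrobacteria* with *Methanobacteria*, from -0.188 to 0.0434 for *Methanobacteria* with *Mollicutes* and from -0.0691 to 0.174 for *Synergistia* with *Bacteroidia*. Depth is not given and was not derived from the shares, and shares listed at 0 may lie under the smallest share listed.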
